A study of Homo sapiens with 12 samples.

Results

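The miR-548 family is a large group of primate microRNAs whose hairpins derive from a transposable element. Its members were taken as every human probe on the array whose name holds hsa-miR-548 followed by a letter, on either arm of the hairpin. The rule gave 73 of 2565 human probes. Of these, 6 probes name several miRNAs, so the 73 probes carry 81 miRNA names. The samples were total RNA of KYSE150, a human cell line established from an oesophageal squamous carcinoma. The galectin-9 group (6 arrays) received 100 nM galectin-9, a lectin with affinity for beta-galactoside sugars, for 6 h, and the control group (6 arrays) received none. Both groups were grown in Ham's F12 with 2% fetal bovine serum, and each sample was labelled with Cy5 and hybridised to its own 3D-Gene miRNA array. Nothing in the labels says whether the 6 numbered samples of a group were grown as separate cultures. The p-values therefore cover the spread between samples only, which may be technical. All samples come from 1 cell line.

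A microRNA is cut from a hairpin precursor into a short mature strand, which guides Argonaute proteins to messenger RNAs through its seed near the 5′ end. Most miR-548 hairpins match MADE1, a short palindromic element of the mariner class of DNA transposons. Transcription through such a palindrome gives an RNA that folds back on itself, and copies lie scattered through the genome, many within introns. Family members have been described in many human tissues, often at low levels.

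The sequences below are those of the miRNAs with sequence that were detected on 4 or more arrays, followed by the opposite arm of miR-548aq-5p (miR-548aq-3p, on 0 arrays) and a close relative (miR-548ar-5p, on 1 array). They were chosen after their values were seen, and show how alike or unlike the detected members are. They come from RefSeq (GRCh38.p14), run 5′ to 3′, and the capitals mark the seed, bases 2 to 8.
miR-548aq-5p: gAAAGUAAuugcuguuuuugcc
miR-548w: aAAAGUAAcugcgguuuuugccu
miR-548k: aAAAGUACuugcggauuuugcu
miR-548q: gCUGGUGCaaaaguaauggcgg
miR-548b-3p: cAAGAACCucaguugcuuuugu
miR-548al: aACGGCAAugacuuuuguacca
miR-548s: aUGGCCAAaacugcaguuauuuu
miR-548f-3p: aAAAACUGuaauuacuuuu
miR-548aq-3p: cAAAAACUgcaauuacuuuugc
miR-548ar-5p: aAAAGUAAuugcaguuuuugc

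Of the 73 probes, 52 (71.2%) matched a RefSeq mature sequence. The 52 sequences were 18 to 23 bases long and held 29 different seeds. Their GC content ran from 15.8% to 54.5% with a median of 34.9%, against a median of 52.2% over 2315 other human mature miRNAs. With under 80% of the probes matched, a check of detection against base composition would be void and was not made. The letters GUAAUU or their reverse complement AAUUAC, searched on the mature strand and taken from the MADE1 palindrome, stood in 20 of the 52 members (38.5%) and in 16 of the 2315 other mature miRNAs (0.691%). Those 16 include miR-570-5p, which shares a member probe, and miR-570-3p and miR-603, which also derive from MADE1. Such a match describes the letters and nothing more.

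The matched members came from 51 hairpin genes on 21 chromosomes, counting MIR570, which shares a member probe. Of these, 34 lay within a protein-coding gene, 27 on the gene's own strand. The strand of RADX, the host of miR-548an, was not known, so that hairpin is not among the 27. The mature miR-548aq-5p strand lies at chr3:185767883-185767904 on the minus strand within IGF2BP2, which encodes an RNA-binding protein and is read from the same strand. miR-548q lies at chr10:12725325-12725346 on the minus strand within the kinase gene CAMK1D, which is read from the opposite strand. miR-548k lies at chr11:70283986-70284007 on the plus strand within PPFIA1, which encodes the scaffold protein liprin-alpha-1, in a region known to be amplified in part of oesophageal squamous carcinomas. miR-548b-3p lies within FAM184A, miR-548w within the heparan sulfate sulfotransferase gene HS3ST4, and miR-548s within LPIN1, which encodes the phosphatidate phosphatase lipin-1. miR-548f-3p has 5 copies with the same mature sequence, within ERBB4, TMEM232, CNTNAP2, PCDH15 and DMD. Copies of 1 sequence cannot be told apart by a probe.

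Across the arrays, 934 to 2045 human probes passed the detection limit of the deposited files, with the lowest number on control 6. That limit is the mean of the blank spots, trimmed by 5% at each end, plus 2 SD of the trimmed spots. Of 6 squamous and epithelial miRNA markers, 5 were detected on all 12 arrays and miR-944 on 11. Their summed level was 4797 to 7096 units on galectin-9 arrays and 4670 to 6380 units on control arrays. Of markers for other cell types, the endothelial miR-126-3p was detected on all 12 arrays (37.6 to 56.9 units with galectin-9 and 32.7 to 48.4 in controls). Of the 3 leukocyte markers, miR-142-3p was detected on 11 arrays (2.68 to 11.5 units with galectin-9 and 2.71 to 18.3 in controls). The others, miR-142-5p and miR-223-3p, were each detected on 6. Of the 3 muscle markers, miR-133b was detected on 11 arrays (2.45 to 6.62 units with galectin-9 and 1.42 to 7.60 in controls), miR-133a-3p on 5 and miR-1-3p on 0. Erythroid, mesenchymal, hepatocyte, neuron and pluripotent markers were detected on 1 (miR-367-3p) to 9 arrays (miR-302a-3p). The part of other cell types' RNA in the results was not tested. Every galectin-9 array had an even position on its slide and every control an odd one, so treatment and position cannot be told apart. In bulk RNA, fewer cells with a miRNA and less of it per cell cannot be told apart.

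Most miR-548 members were detected on no array or on a single one in KYSE150 cells. On 12 arrays, 28 of 73 members (38.4%) were detected on none, 26 (35.6%) on 1, 17 (23.3%) on 2 to 5 and 2 on 6 to 11. No member was detected on all 12 arrays. Among the other 2492 human probes, 164 (6.58%) were detected on none, 1732 (69.5%) on at least 6 and 891 (35.8%) on all 12. With a stricter limit of 3 SD, 53 members were detected on no array, and the number on at least 6 arrays was again 2.

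**Figure D1:**
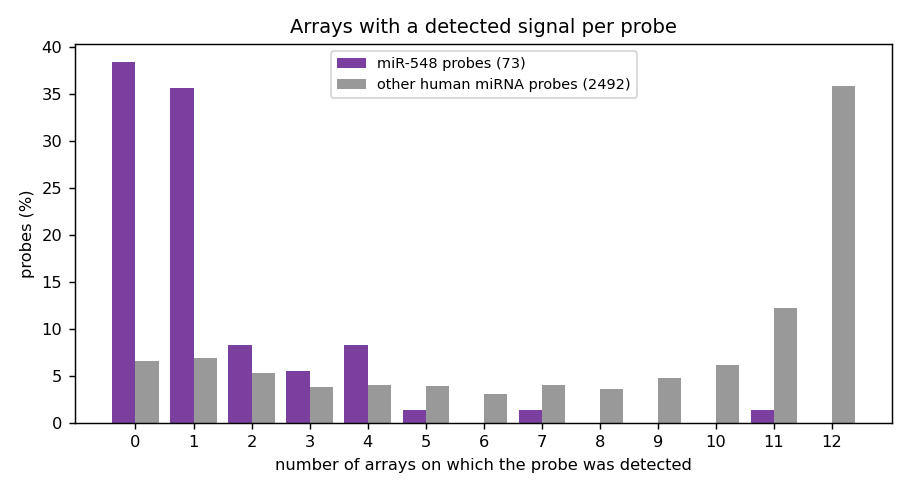
The share of probes (%) is plotted against the number of arrays on which a probe was detected, for the 73 miR-548 probes and the 2492 other human probes. The miR-548 probes pile up at 0 arrays (38.4%) and 1 array (35.6%), while the other probes peak at 12 arrays (35.8%).

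The family's spots were also set against 2 kinds of control spot on the same arrays. Of 876 member spots, 97 (11.1%) passed the limit, against 309 of 3837 blank spots (8.05%) and 83 of 383 negative control spots (21.7%). The limit is built from these same blank spots after trimming, so the blank share is largely set by its definition. Over all human probes, 65.7% of spots passed. Members lay below the array's median negative control on 613 of 876 spots (70.0%), with 43 to 59 of the 73 members below it on every array. The same held for 19.4% of spots over all human probes, and for 13.4% to 24.4% on single arrays. Without miR-548aq-5p and miR-548q, the other 71 members passed the limit on 79 spots, or 9.27% of theirs.

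Of the 26 members detected on a single array, 20 (76.9%) were detected on a galectin-9 array and 6 on a control array. Over all human probes detected once, the galectin-9 share was 78.3% (155 of 198). Of the 26 detections of members, 16 fell on galectin-9 replicates 5 and 6. Their detected signals were 1.54 to 3.44 units above the blank mean. Only 29 member spots exceeded the highest negative control spot of their array, and 58 of the 73 members did so on no array.

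miR-548aq-5p and miR-548q were the members detected on at least 6 arrays. miR-548aq-5p was detected on 11 arrays, 6 with galectin-9 and 5 of the controls. Its raw signal above the blank mean was 5.04, 4.98, 5.43, 4.50, 3.18 and 2.74 units on galectin-9 arrays 1 to 6. On control arrays 1 to 6 it was 5.19, 4.71, 4.86, 4.35, 3.28 and 1.17 units. The groups overlapped throughout, both were lowest on the third slide (arrays 5 and 6), and control 6 alone was below the limit. The raw mean was 4.31 units with galectin-9 (range 2.74 to 5.43, n = 6) and 3.93 units in controls (range 1.17 to 5.19, n = 6), the opposite order to the normalised means that follow. The signal exceeded the highest negative control spot on 9 arrays and the median negative control on all 12.

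After quantile normalisation over all human probes, with undetected values set to the array's lowest detected value (the floor), miR-548aq-5p had a log2 intensity of 1.97 ± 0.42 with galectin-9 and 2.16 ± 0.20 in controls (SD, n = 6 each). The log2 difference was -0.19 (SE 0.18, limma adjusted p = 0.696), a fold of 0.876 with a 95% interval of 0.667 to 1.15. It was 0.05, 0.11 and -0.74 within slides 1, 2 and 3, and the galectin-9 array was the higher in 2 of 6 pairs of equal number. The floor of control 6, at 2.44, was the highest of the 12 floors and stood in for the undetected value there, which made it the highest control value.

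miR-548q was detected on 7 arrays, 4 with galectin-9 and 3 of the controls. Its signal above the blank mean was 4.31, 2.77, 3.24, 1.91, 1.18 and 3.60 units on galectin-9 arrays 1 to 6. On control arrays 1 to 6 it was 1.22, 4.03, 3.83, 2.21, 2.86 and -0.42 units. High and low arrays occurred in both groups, and the signal exceeded the highest negative control on 5 arrays. On this raw scale the mean was 2.83 ± 1.14 units with galectin-9 and 2.29 ± 1.69 units in controls (SD, n = 6 each). On the normalised scale the log2 intensity was 1.37 ± 0.56 with galectin-9 and 1.67 ± 0.55 in controls (SD, n = 6 each), a difference of -0.31 (SE 0.29, 95% interval -0.94 to 0.33, limma adjusted p = 0.696). The raw means thus run the other way. Of the 12 normalised values 5 are floors (galectin-9 replicates 4 and 5 and controls 1, 4 and 6), and the floor of control 6 was again the highest control value.

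Of the other 71 members, 7 were detected on 4 or 5 arrays and are described here because of that count, seen in these data. miR-548b-3p was detected on 3 galectin-9 and 2 control arrays. Its signal above the blank mean was 2.96, 2.13, 0.62, 1.24, 2.30 and 0.75 units with galectin-9, against 1.24, 3.76, 3.73, -0.14, 1.60 and 1.22 units in controls. The means were 1.67 ± 0.94 and 1.90 ± 1.55 units for galectin-9 and control arrays (SD, n = 6 each), closer than the spread within either group.

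miR-548w, which has the seed of miR-548aq-5p, was detected on 2 arrays of each group. Its signal was 1.61 ± 1.58 units with galectin-9 and 1.67 ± 1.46 units in controls (SD, n = 6 each). The single highest value, 4.49 units, came from galectin-9 replicate 1, and control 6 was lowest at -0.39 units.

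The probe shared by miR-548aa and miR-548t-3p was detected on 4 galectin-9 arrays and no control array. Its signal above the blank mean was 3.72, 2.57, 1.60, 0.06, 2.55 and 2.07 units with galectin-9, against 0.63, 0.41, 1.60, 0.80, -0.65 and -0.27 units in controls. Galectin-9 replicate 4 lay inside the control range, and replicate 3 was level with control 3. Such a pattern, at least 4 galectin-9 arrays and no control array, was held by 15 of 2565 probes (0.585%), and this probe fell under the filter for testing. It was picked out after its values were seen, and no fold is given because the controls have only a bound.

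miR-548s and miR-548f-3p were each detected on 1 galectin-9 and 3 control arrays. miR-548s had 0.61 ± 1.01 units with galectin-9 and 1.70 ± 1.67 units in controls, and miR-548f-3p had 0.29 ± 1.15 and 1.10 ± 1.86 units for galectin-9 and control arrays (SD, n = 6 each). In both cases the groups overlapped. miR-548k and miR-548al were each detected on 2 arrays of each group. miR-548k had 1.46 ± 0.66 units with galectin-9 and 0.49 ± 1.59 units in controls, and miR-548al had 1.35 ± 0.81 units with galectin-9 and 1.06 ± 1.60 units in controls (SD, n = 6 each).

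**Figure D2:**
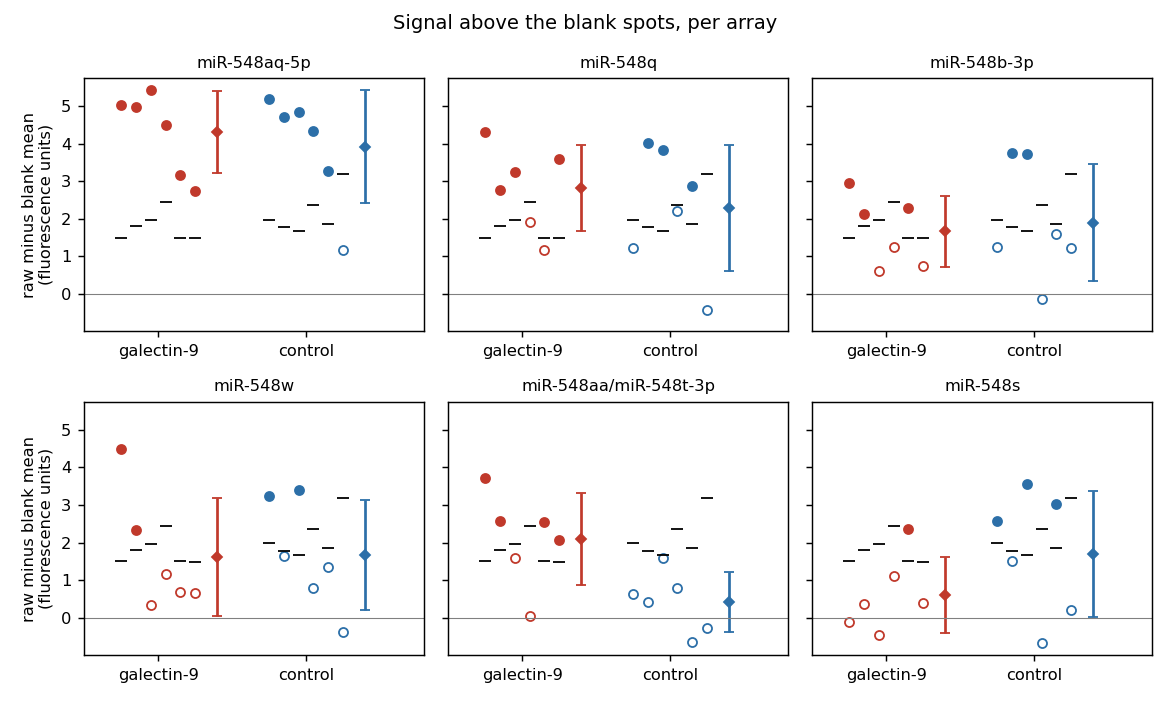
Raw signal minus the blank mean (fluorescence units) is plotted per array for 6 members, galectin-9 left and control right. Filled points are detected, open points are not, short black lines are each array's detection limit, and diamonds with bars are the mean ± SD of 6 arrays. Only miR-548aq-5p lies above its limit on nearly every array (11 of 12), and the groups overlap in every panel.

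**Figure D3:**
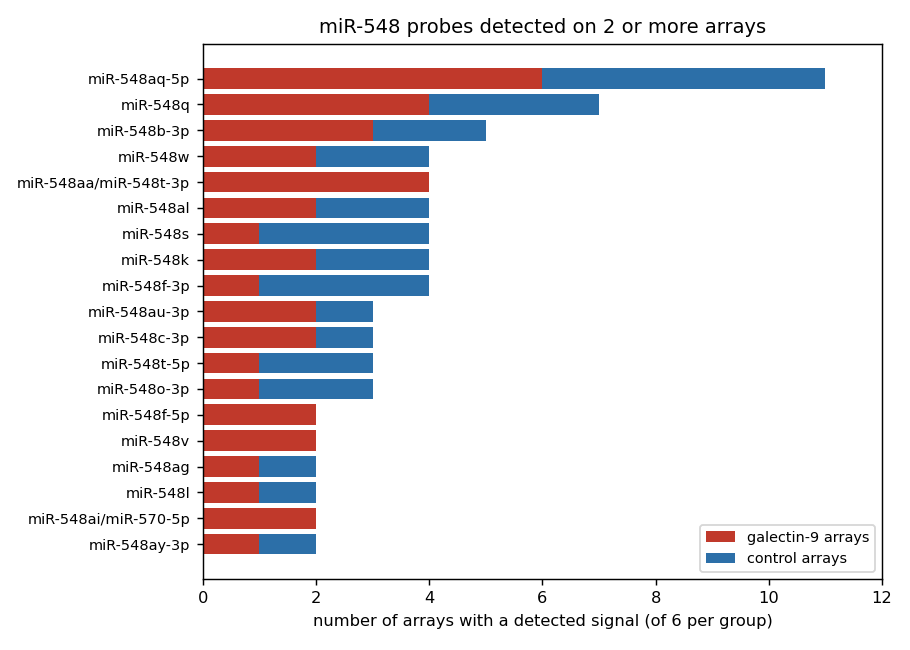
Bars give, for each member detected on 2 or more arrays, the number of galectin-9 and control arrays with a detected signal, stacked. miR-548aq-5p leads with 6 galectin-9 and 5 control arrays, and the shared miR-548aa and miR-548t-3p probe has 4 galectin-9 arrays and no control array.

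Detection was not shared evenly by members with like sequences. Seeds and distances here cover only the 52 member probes with a matched sequence, so unmatched probes may hold the same seeds or lie nearer. Among those 52, the seed AAAGUAA is held by 11 probes, of which 9 were detected on at least 1 array. Within that group miR-548aq-5p was detected on 11 arrays, miR-548w on 4 and each of the rest on 0 or 1. The nearest matched members to miR-548aq-5p, miR-548as-5p, miR-548ar-5p and miR-548y, differ from it by 3 edits and were detected on 1, 1 and 0 arrays. Within 4 edits lie 6 matched members, the most often detected of them on 4 arrays. By the same count, the nearest matched member to miR-548q is 12 edits away. Edits were counted end to end, so a shifted start of the mature strand adds to them. The letters AAAGUAA also stand in miR-548q, further along the strand and outside its seed. The seed AAAAACU is held by 7 of the matched probes, all from 3p arms and none detected on any array.

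By arm, 17 of 24 5p probes, 14 of 28 3p probes and 14 of 21 probes with no arm in the name were detected at least once. They were detected on 10.8%, 9.23% and 13.9% of their spots. Both arm sequences were known for 13 hairpins. The 5p arm was detected on more arrays in 8 of them, the 3p arm in 2, and the counts were equal in 3. In all of the 8 but MIR548AQ this was 1 array against 0, and 3 of them share 1 5p probe (miR-548g-5p, miR-548x-5p and miR-548aj-5p), so a single detection counts for all 3. For the MIR548AQ hairpin, the 5p arm was detected on 11 arrays and the 3p arm on 0. Laid side by side without gaps, 18 of the 22 bases of these arms pair. No hairpin had both arms on at least 6 arrays.

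The order of members differed between arrays. Over the 73 members, Spearman's rho between the raw signals of 2 arrays had a median of 0.27 over 66 pairs of arrays (-0.07 to 0.52). Over all 2565 human probes the median was 0.913 (0.845 to 0.943). These values describe pairs of arrays that share a probe set, and carry no test.

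The number of members detected on an array varied more between arrays than between groups. On galectin-9 arrays 1 to 6 it was 13, 7, 3, 1, 18 and 18, and on control arrays 1 to 6 it was 5, 7, 15, 1, 9 and 0. The ranges overlapped. The means were 10.0 ± 7.43 with galectin-9 and 6.17 ± 5.53 in controls (SD, n = 6 each). The difference of 3.83 was smaller than either SD, and was 4.0, -6.0 and 13.5 within slides 1, 2 and 3. At the stricter limit of 3 SD it was 0.833. The galectin-9 array had more members detected in 3 of 6 pairs of equal number, with 2 pairs equal.

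The negative control spots moved with these counts. On galectin-9 arrays 1 to 6, the number of negative control spots over the limit was 10, 6, 2, 1, 15 and 16, of 32 spots (31 on array 2). On control arrays 1 to 6 it was 8, 8, 14, 0, 3 and 0 of 32. The arrays with 15 or more members detected (galectin-9 replicates 5 and 6 and control 3) had the highest shares of negative control spots over the limit. The arrays with 0 or 1 member detected (galectin-9 replicate 4 and controls 4 and 6) had the lowest. The part of this background in the detections was not tested. By group the share of negative control spots over the limit was 26.1 ± 20.0% with galectin-9 and 17.2 ± 17.2% in controls (SD, n = 6 each).

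**Figure D4:**
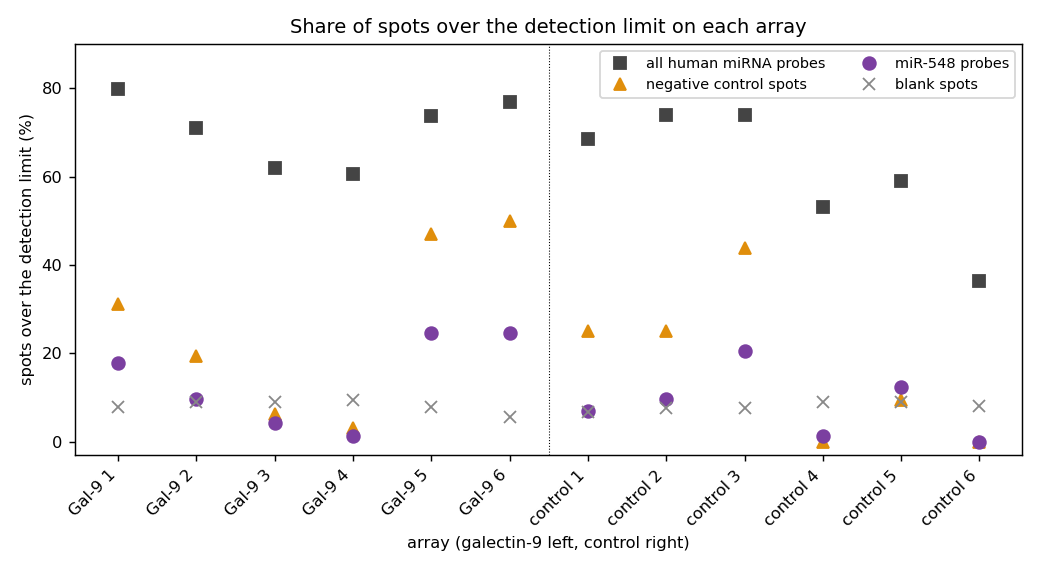
The share of spots over the detection limit (%) is plotted for each array, galectin-9 left and control right, for all human probes, miR-548 probes, negative control spots and blank spots. The miR-548 shares (0% to 24.7%) run near the control spots and far below all human probes (36.4% to 79.7%).

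Member by member, 29 of 73 (39.7%) were detected on more galectin-9 than control arrays and 10 (13.7%) on more control arrays, with 6 equal. Over all human probes, 43.1% were detected on more galectin-9 arrays and 6.9% on more control arrays. The mean raw signal of all 73 members above the blank mean was 0.509 ± 0.367 units with galectin-9 and -0.076 ± 0.783 units in controls (SD, n = 6 each). The difference of 0.585 units was smaller than the control SD, and was 0.307, -0.038 and 1.49 units within slides 1, 2 and 3. The galectin-9 array was the higher in 5 of 6 pairs of equal number. The median signal of all human probes differed by 0.424 units in the same direction, and that of the negative control spots by 0.371 units. Over the 73 members, the mean signal of 32 lay below the blank mean.

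No member was called different with galectin-9. The limma fit covered 1734 probes detected on at least 6 arrays, of which 3 (0.173%) passed an adjusted p of 0.05, all higher. Of the 2 members in that fit, 0 were called, and 0 had an unadjusted p under 0.05, against 12.9% of all probes tested. The median log2 difference of the 2 members was -0.25, beside -0.07 over all tested probes. The other 71 members did not pass the filter on detection, so the fit says nothing about them.

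All 73 members were also fitted. With no filter, 0 members were called (0.078% of 2565 probes were), 3 had an unadjusted p under 0.05, all lower, and 72 of 73 differences were below 0 with a median of -0.63. The 3 were miR-548f-3p, miR-548b-3p and miR-548s, and 8.93% of all probes had such a p. That median equals the difference of the mean floors of the groups, 0.50 with galectin-9 and 1.13 in controls, and the 28 members detected on no array stand at exactly that value by construction. The median over all probes was -0.21.

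With the log2 of raw intensity, quantile-normalised between arrays and given no floor, 33 members lay above 0 and 40 below. That setting was added after the data were seen. The differences ran from -0.07 to 0.05. Again 0 members were called, the smallest limma adjusted p being 0.309, while 0.702% of all probes were called, 0.507% higher and 0.195% lower. An unadjusted p under 0.05 was held by 4 members, against 11.1% of all probes: miR-548j-5p was higher, and miR-548h-5p, miR-548s and miR-548aj-3p were lower. Raw intensity includes the blank level, so differences of dim probes are compressed on this scale.

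**Figure D5:**
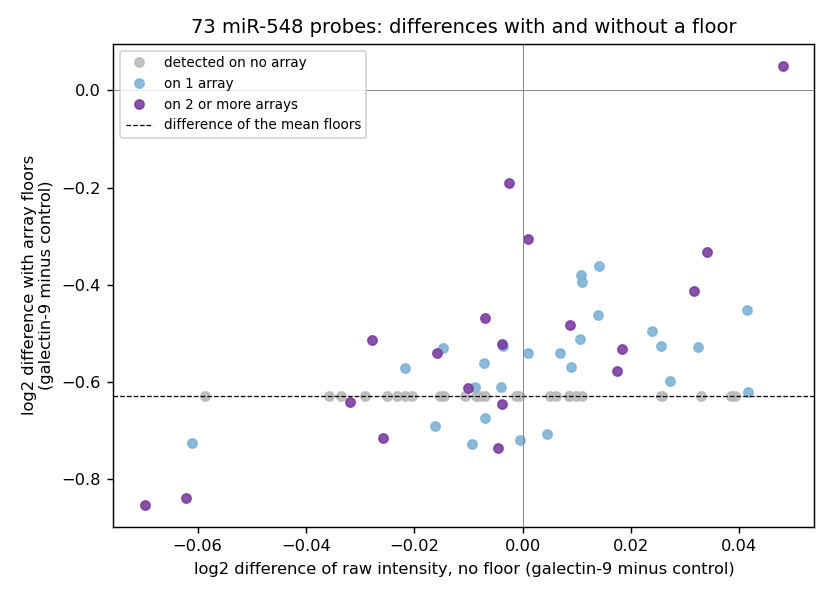
For each of the 73 members, the log2 difference (galectin-9 minus control) with array floors is plotted against that of quantile-normalised raw intensity without a floor. The 28 members detected on no array lie on the dashed line at -0.63, the difference of the mean floors. Their differences without a floor spread on both sides of 0.

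Other miRNAs that derive from MADE1 were set beside the family. miR-570-3p and miR-579-3p were each detected on 2 arrays, miR-603 on 8 and miR-579-5p on 12. miR-579-5p had a log2 intensity of 3.49 ± 0.12 with galectin-9 and 3.57 ± 0.24 in controls (SD, n = 6 each), a difference of -0.08 (limma adjusted p = 0.800). miR-603 was detected on 4 arrays of each group. Its signal above the blank mean was 5.72, 2.12, 0.85, 1.41, 1.95 and 1.74 units with galectin-9, against 6.18, 5.75, 5.78, 3.66, 0.0055 and 2.51 units in controls. Controls 1 to 3 were higher than every galectin-9 array, and controls 4 and 6 were higher than all but galectin-9 replicate 1. Control 5 was at the blank level.

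On the normalised scale, miR-603 had 1.08 ± 0.60 with galectin-9 and 2.13 ± 0.41 in controls (SD, n = 6 each). The difference was -1.05 (SE 0.27, 95% interval -1.64 to -0.46), and it did not pass the threshold (limma adjusted p = 0.206). It was -0.81 within slide 1 and -1.03 within slide 2. Within slide 3 it was -1.31, where both controls were undetected and stand at floors of 1.31 and 2.44. The galectin-9 array had the lower normalised value in 6 of 6 pairs, but in pair 5 only through the floor, since the raw signal there was 1.95 units with galectin-9 and 0.0055 in the control. Without galectin-9 replicate 1 the difference was -1.25 and passed (limma adjusted p = 0.0489). With 1 floor common to all arrays, set at the highest array floor of 2.44, it was 0 by construction. No normalised miR-603 value exceeded that floor. Galectin-9 replicates 3 and 4 were also undetected and stand at their arrays' floors.

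A list of 38 probes for miRNAs linked to other transposable elements, chosen with results of these data known, was detected on 77.6% of its spots. Of these probes, 19 were detected on all 12 arrays and 31 entered the fit. None was called, and 3 of the 31 had an unadjusted p under 0.05. With 15 differences above 0 and 16 below, their median was -0.02, beside -0.07 over all tested probes.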

How the data were processed

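The members, the lists and the tests were chosen with earlier results of these data known. Per the file headers, the deposited array files hold raw, background-subtracted and globally normalised Cy5 intensity on a linear scale, 3200 spots per array. The background that the authors subtracted matches the trimmed mean (5% off each end) of the 320 blank spots. A value is listed where raw intensity exceeds it by over 2 SD. The scanner is not given in the sources used here.

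Raw intensity minus that background was quantile-normalised over 2565 human probes (limma 3.58.1, R 4.3.3). Undetected values took the lowest normalised value among detected probes of their array before the log2 step. Probes detected on at least 6 of 12 arrays were tested with lmFit and eBayes, two-sided, with Benjamini-Hochberg adjustment at 0.05. The fit was tested on simulated data. The 6 human spots marked as not good were left out, none of them a member. The number of arrays limits the precision.

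Codes in the file names were taken as 3 slides and 4 positions. Deviations from the group means correlated above 0.1 in 6 of 6 equal-numbered pairs (0.171 to 0.527, against a median of -0.04 for other numbers), so the numbers were taken as pairs. Neighbouring positions could give the same. The deposited series table holds 891 probes and none of the members. Members named with a test were those detected on at least 6 arrays, with the MADE1 relatives miR-579-5p and miR-603. Edit distances were counted with edlib 1.3.9.post1. Alternatives covered normalisation, background, floor, filter, blocks, the detection limit and each array left out.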

Additional observations from a re-analysis of the deposited data

Results flagged for a closer look

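Among 12 groups of 6 arrays checked, 1 held an array far from the others. On control 5, miR-603 had a log2 intensity of 1.31, below the other controls, by a gap that was 0.739 of the group's whole range. The probe was undetected there, so 1.31 is the floor of that array. Chance flags about 1 in 20 groups.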

How the results depend on the processing

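No member was called under any alternative run. The number of all probes called, 3 as reported, was 19 with normexp background and 9 with 1 floor common to all arrays. It was 9 over probes detected on all 12 arrays and 5 with slide as a block. It was 18 with log2 raw intensity, quantile-normalised, an alternative chosen after seeing the data. With the replicate number as a block it was 1, and the block changed no member's call. Leaving out single arrays gave 2 to 5, with 5 without galectin-9 replicate 1. The median of the 2 tested members, -0.25, was 0.14 with the authors' global normalisation, which moved the median of all probes to 0.23. With single arrays left out, the median of these 2 ran from -0.35 to -0.12. With no filter the median was -0.63, but over all 73 members. The differences of the same 2 members (miR-548q -0.31, miR-548aq-5p -0.19) were unchanged there. miR-548aq-5p turned to 0.17 with global normalisation and 0.013 with the common floor. miR-548q turned to 0.11 with global normalisation, 0.00063 with normexp, 0.0010 with raw intensity and 0 with the common floor. miR-579-5p turned to 0.16 with global normalisation, and miR-603 was 0 with the common floor. That floor, 2.44, lay at or above every normalised value of miR-548q and miR-603, so their 0 follows by construction. It also replaced most values of miR-548aq-5p. The cause of the other turns was not tested. Members on no array numbered 53, against 28, at a limit of 3 SD. With single arrays left out, differences ran from -0.30 to -0.06 for miR-548aq-5p, -0.49 to -0.10 for miR-548q, -0.15 to -0.03 for miR-579-5p and -1.25 to -0.89 for miR-603. The difference in detected members per array, 3.83 as reported, was 0.833 at the 3 SD limit and ran from 2.23 to 5.63 with single arrays left out, while that in mean signal above the blanks ran from 0.292 to 0.703 units. No member was detected on all 12 arrays or held by the deposited series table, so those alternatives gave no member value. Signals this close to the blanks limit every statement on single members.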
